A study of Homo sapiens with 8 samples.

Results

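The E2F transcription factors E2F1 to E2F8 and the pocket proteins RBL1 (p107) and RBL2 (p130) were measured in BT474 cells labelled as high or low in NPY1R, the gene of the neuropeptide Y receptor Y1. The 10 genes were taken by symbol from a table of 26475 genes, and all 10 passed the filter on low counts that left 14008 genes for testing. BT474 is an established human breast cancer cell line of luminal type with amplified ERBB2. RNA was sequenced from 4 NPY1R high and 4 NPY1R low libraries, numbered as replicates 1 to 4 in each group. The series title places them in work on persister cells under lapatinib, which blocks the kinases ERBB2 and EGFR, but the labels name no drug, no sorting or engineering step, and no separate cultures behind the replicates. The p-values therefore measure the spread between these libraries, which may be technical.

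E2F factors bind DNA at promoters of genes for DNA synthesis and the cell cycle, mostly as dimers with a DP partner. E2F1, E2F2 and E2F3 are the activators. In resting cells the pocket proteins RBL1 and RBL2, mainly with E2F4 or E2F5, hold such genes silent as part of the DREAM complex, and cyclin D with CDK4 or CDK6 phosphorylates pocket proteins and so frees the promoters. E2F6 represses through polycomb proteins without pocket proteins, and E2F7 and E2F8 are atypical repressors that bind DNA without a DP partner. In luminal breast cancer this pathway is the target of CDK4 and CDK6 inhibitors.

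Several E2F and pocket protein genes carry E2F sites in their own promoters, and the sequences that hold them are shown because they link these genes to the E2F targets described further on. In the RefSeq promoter windows (GRCh38.p14, 250 bases before to 50 after a gene start), 10 windows matched 8 of the 10 genes. The E2F site was searched on both strands as TTTCCCGC, TTTCGCGC, TTTGCCGC or TTTGGCGC, and the cell cycle homology region (CHR), the element through which DREAM holds G2 and M phase genes, as TTTGAA or TTCGAA. An E2F site lay in 4 of the 10 windows (40%), against 3.31% of all 35116 windows. The 4 genes were E2F1, E2F2, E2F3 and RBL1, while the windows of E2F4, E2F6, E2F7 and RBL2 held none of the E2F site spellings. A CHR lay in 2 of the 10 windows (20%), those of E2F3 and, as TTTGAA at 25 bases after the start, RBL2. The stretches before the start site follow, read 5′ to 3′ along the gene, with matches on either strand in capitals. They cover chr20:33686386-33686438 (minus strand), chr1:23531248-23531295 (minus strand), chr6:20401794-20401853 (plus strand) and chr20:37095998-37096043 (minus strand).
E2F1: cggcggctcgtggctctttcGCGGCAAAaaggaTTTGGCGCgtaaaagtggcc
E2F2: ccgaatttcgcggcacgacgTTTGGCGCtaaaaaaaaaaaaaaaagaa
E2F3: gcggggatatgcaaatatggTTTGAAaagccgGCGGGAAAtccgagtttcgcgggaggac
RBL1: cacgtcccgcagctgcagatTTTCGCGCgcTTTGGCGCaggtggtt
E2F1 and RBL1 each held 2 E2F sites within 33 bases of the start, and the E2F3 stretch held a CHR (TTTGAA) beside its E2F site. A match describes these letters and does not show that a factor binds there.

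None of the 10 genes passed the test for a difference between NPY1R high and NPY1R low cells. In edgeR's quasi-likelihood test with Benjamini-Hochberg adjustment over all tested genes, 0 of 10 had an adjusted p under 0.05 and 0 had an unadjusted p under 0.05. Over all tested genes 13.6% were called and 26.2% had an unadjusted p under 0.05. DESeq2 and limma-voom also called 0 of the 10. The 10 log2 changes, high minus low, ran from -0.17 (RBL1) to 0.11 (RBL2) with a median of -0.05, where the median of all tested genes was -0.03. Of these, 7 were negative and 3 positive, and the signs of E2F3 and E2F4 turned under other scalings. The groups' values in CPM, a gene's count relative to the TMM-scaled library total, overlapped for all 10 genes. Over all tested genes the groups did not overlap for 20.2%. For only 10 genes, counts of 0 called and 0 without overlap are near the shares over all tested genes. The label itself held, since NPY1R had 699.2 to 1048.9 CPM in the high and 90.8 to 103.7 CPM in the low libraries. Total counts ranged from 18025648 to 30609791 per library.

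**Figure D1:**
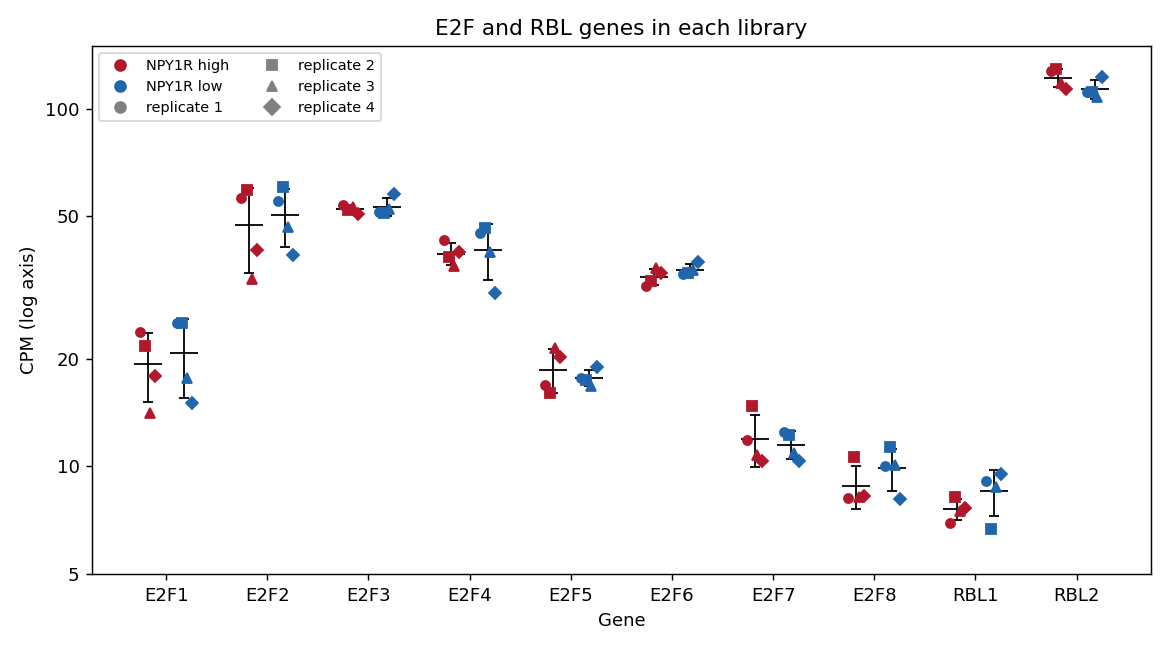
CPM on a log axis for each of the 10 genes, with 1 point per library (red NPY1R high, blue NPY1R low, shape for the replicate number) and black bars for mean and SD (n = 4 per group). The red and blue points of every gene share a range, while E2F1 and E2F2 spread widely within both groups.

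Among the activators, E2F1 (chromosome 20, 33675683 to 33686404, minus strand, GRCh38 by GENCODE 29), which also drives apoptosis genes, had 23.8, 21.8, 14.1 and 17.8 CPM in NPY1R high replicates 1 to 4. It had 25.1, 25.1, 17.6 and 15.1 CPM in NPY1R low. Replicates 1 and 2 were high and replicates 3 and 4 low in both groups, and the groups overlapped across most of their range. The change was -0.10 (SE 0.20), with a 95% interval of -0.55 to 0.35 and an edgeR adjusted p of 0.829. E2F2 (chromosome 1, 23506430 to 23531220, minus strand) had 56.3, 59.4, 33.3 and 40.4 CPM in high and 55.0, 60.4, 46.8 and 39.0 CPM in low. Its libraries divided in the same way as those of E2F1. The change of E2F2 was -0.09 (SE 0.19), with an interval of -0.52 to 0.34 and an edgeR adjusted p of 0.844.

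E2F3 (chromosome 6, 20401906 to 20493715, plus strand) was the most even of the activators. It had 53.8, 52.1, 53.1 and 50.8 CPM in high and 51.4, 51.0, 52.4 and 57.6 CPM in low. All libraries other than NPY1R low replicate 4 lay within a narrow band. Its coefficient of variation was 2.46% in high and 5.77% in low, against 22.03% and 24.9% for E2F1. The change of -0.02 (SE 0.06) had an interval of -0.15 to 0.12 and an edgeR adjusted p of 0.905.

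E2F4 and E2F5 are the E2F factors of quiescent cells. E2F4 (chromosome 16, 67192169 to 67198918, plus strand) had 42.8, 38.6, 36.2 and 39.7 CPM in high and 44.9, 46.3, 39.7 and 30.4 CPM in low. The low group contained both the highest and the lowest library. The change was -0.04 (SE 0.12), with an interval of -0.31 to 0.24 and an edgeR adjusted p of 0.901. E2F5 (chromosome 8, 85177225 to 85217158, plus strand) had 16.9, 16.03, 21.4 and 20.3 CPM in high and 17.7, 17.4, 16.7 and 19.0 CPM in low. NPY1R high replicates 3 and 4 were the highest of the 8 libraries, but replicates 1 and 2 of that group lay below most low libraries. The change was 0.07 (SE 0.11), with an interval of -0.17 to 0.31 and an edgeR adjusted p of 0.751.

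E2F6 (chromosome 2, 11444375 to 11466177, minus strand), the polycomb-linked repressor, had 31.9, 32.9, 35.9 and 34.6 CPM in high and 34.4, 34.7, 35.5 and 37.2 CPM in low. The libraries of both groups lay close together. The change was -0.07 (SE 0.07), with an interval of -0.21 to 0.08 and an edgeR adjusted p of 0.595. E2F7 (chromosome 12, 77021247 to 77065580, minus strand), which represses E2F targets late in S phase, had 11.9, 14.7, 10.7 and 10.4 CPM in high and 12.5, 12.3, 10.9 and 10.3 CPM in low. E2F8 (chromosome 11, 19224063 to 19241620, minus strand), its close relative, had 8.14, 10.6, 8.21 and 8.26 CPM in high and 9.9996, 11.3, 10.1 and 8.09 CPM in low. NPY1R high replicate 2 was the highest library of its group for both atypical factors. The changes were 0.05 (SE 0.13, edgeR adjusted p 0.861) for E2F7 and -0.17 (SE 0.14, edgeR adjusted p 0.513) for E2F8. Without NPY1R high replicate 2 they were -0.07 (edgeR adjusted p 0.818) and -0.27 (edgeR adjusted p 0.28).

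Of the pocket proteins, RBL1 (chromosome 20, 36996349 to 37095995, minus strand), whose level follows the cell cycle, had 6.97, 8.22, 7.49 and 7.65 CPM in high and 9.13, 6.69, 8.79 and 9.54 CPM in low. Of the low libraries, 3 lay above every high library and replicate 2 lay below them all. The change was -0.17 (SE 0.13), with an interval of -0.46 to 0.12 and an edgeR adjusted p of 0.477. RBL2 (chromosome 16, 53433977 to 53491649, plus strand), the pocket protein of resting cells, had 126.9, 128.7, 118.2 and 113.8 CPM in high and 111.2, 110.9, 108.0 and 122.9 CPM in low. NPY1R low replicate 4 lay inside the range of the high group, and the other low libraries lay below it. The change was 0.11 (SE 0.06), with an interval of -0.03 to 0.24 and an edgeR adjusted p of 0.324. Between replicates 1 and 2 alone RBL2 rose by 0.24 (edgeR adjusted p 0.00502), and between replicates 3 and 4 alone the change was 0.04 (edgeR adjusted p 0.883). The fit of replicates 1 and 2 was the only one of 24 in which any of the 10 genes was called. It called 1421 genes higher and 1594 lower of 14206 tested, so 1 call among 10 genes does not exceed its share over all genes.

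Within a library, the log2 ratio of RBL1 to RBL2 counts was -4.19, -3.97, -3.98 and -3.89 in NPY1R high and -3.61, -4.05, -3.62 and -3.69 in NPY1R low. The means were -4.01 ± 0.13 and -3.74 ± 0.21 (SD, n = 4 each), and NPY1R low replicate 2 made the groups overlap. The ratio of E2F1 to E2F4, an activator against the repressor of resting cells, was -1.05 ± 0.25 in high and -0.98 ± 0.15 in low (SD, n = 4 each). It spanned -0.83 to -1.36 in high and -0.84 to -1.17 in low, so the low range lay inside the high one.

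The 95% intervals bound how large a change these libraries could have hidden. As folds, the intervals of the 10 genes lay between 0.683 (the lower bound of E2F1) and 1.28 (the upper bound of E2F1). They were narrowest for E2F3, from 0.902- to 1.08-fold, E2F6, from 0.864- to 1.06-fold, and RBL2, from 0.979- to 1.18-fold. The widest were those of E2F1 and E2F2. These intervals hold for each gene alone and are not adjusted for the number of genes.

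**Figure D2:**
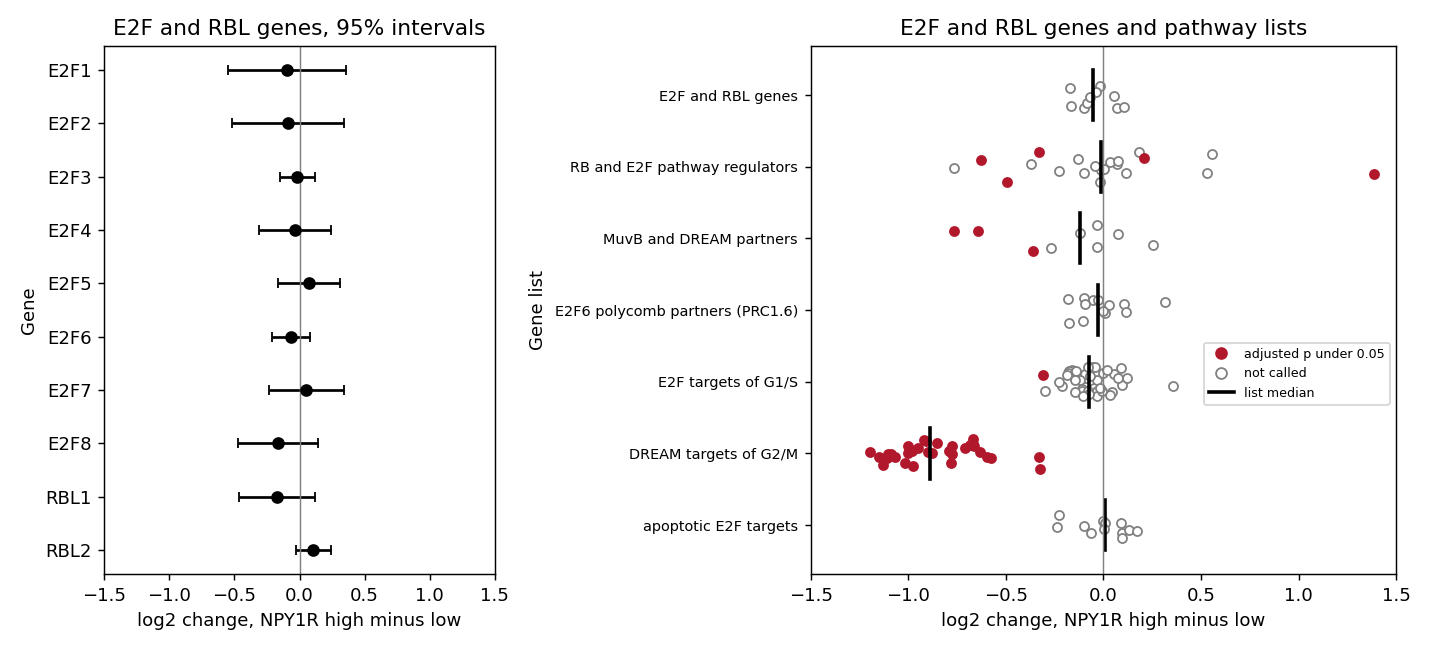
Left, the log2 change (NPY1R high minus low) of each of the 10 genes with its 95% interval, and all intervals cross 0. Right, the changes of the same genes and of 6 pathway lists, with called genes filled in red and the list median as a black line: the G2/M targets lie wholly below 0, with a median of -0.89, and the G1/S targets lie on both sides of 0, 30 negative and 9 positive.

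The spread of E2F1 and E2F2 within the groups followed a division of replicates 1 and 2 from replicates 3 and 4. The labels name no batch, and the division was known from earlier results of these data. In both groups together, E2F1 had 21.8 to 25.1 CPM in replicates 1 and 2 and 14.1 to 17.8 CPM in replicates 3 and 4, which do not overlap. E2F2 had 55.0 to 60.4 CPM in the former and 33.3 to 46.8 CPM in the latter. E2F7 also did not overlap, at 11.9 to 14.7 against 10.3 to 10.9 CPM. The share of all tested genes that separated in this way was not counted, so the division is not shown to be particular to these genes. Fitted with a term for this division, replicates 3 and 4 differed from 1 and 2 by a log2 of -0.57 for E2F1, -0.54 for E2F2, -0.28 for E2F7 and -0.24 for E2F4. The other 6 genes differed by -0.21 to 0.18.

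The longest transcripts of E2F1, E2F4 and E2F2 had the highest GC content of the 10, at 62.5%, 58.1% and 57.5%, and the other 7 had 40% to 46.1%. With each library's trend on transcript GC content removed, the division of E2F1 was -0.22, that of E2F2 -0.36 and that of E2F4 -0.04. E2F7 was at -0.33 and E2F8 at -0.24 with the offset, against -0.28 and -0.21 without it. Whether GC content accounts for the division of any gene was not tested. Within replicates 1 and 2 the mean log2 CPM of E2F1 differed between NPY1R high and low by -0.14, and within replicates 3 and 4 by -0.04. For E2F2 these differences were 0.01 and -0.22, for E2F4 -0.16 and 0.12, and for E2F5 -0.10 and 0.22. E2F2, E2F4 and E2F5 changed sign from one subset to the other, as did E2F3. E2F7 went only from 0.09 to -0.01, and with each subset fitted alone its change was positive in both (0.14 and 0.02).

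**Figure D3:**
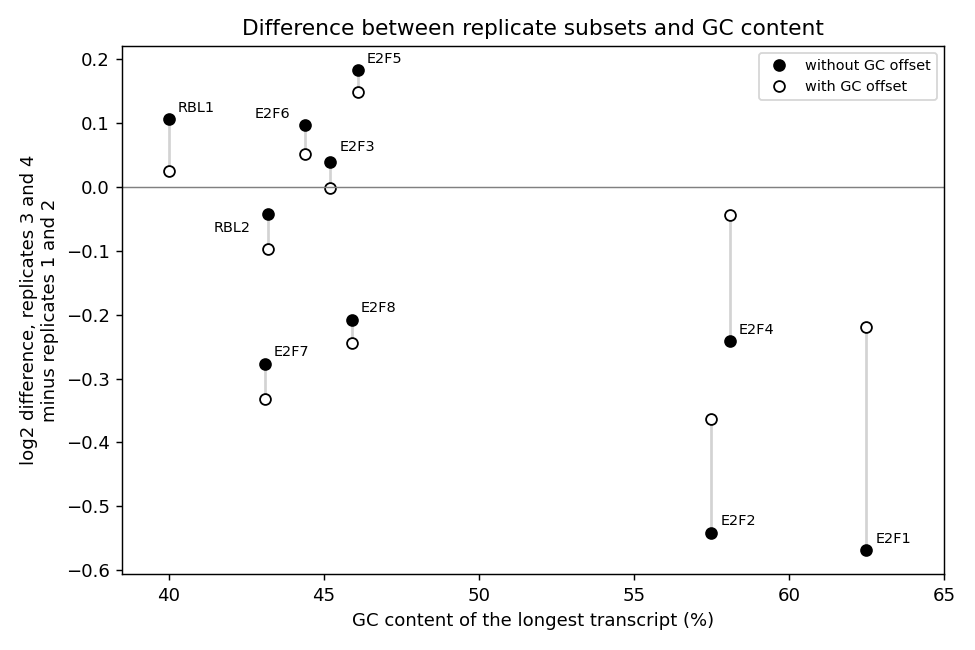
Each of the 10 genes by the GC content of its longest transcript (x axis, percent) and the log2 difference of replicates 3 and 4 from replicates 1 and 2 (y axis), filled without and open with the GC offset. E2F1 and E2F2 lie lowest, at -0.57 and -0.54, and move to -0.22 and -0.36 with the offset.

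Per transcript length, RBL2 was the most abundant of the 10 genes and RBL1 the least. In TPM, computed here as counts per length of the longest GENCODE transcript scaled to a common total, RBL2 had 43.6 ± 5.42 in NPY1R high and 41.2 ± 6.25 in NPY1R low (SD, n = 4 each). E2F4 came next with 32.9 ± 3.10 and 33.8 ± 3.28 TPM, below RBL2 and above E2F3 in 8 of 8 libraries. E2F3, E2F6, E2F5, E2F2 and E2F1 followed with means over all libraries of 19.6, 17.7, 16.9, 16.6 and 14.1 TPM. Neighbours in this order overlapped in range. Within a library, E2F3 lay above E2F6 and E2F2 above E2F1 in 8 of 8 libraries. E2F6 lay above E2F5 in 6 of 8 and E2F5 above E2F2 in only 3 of 8. The atypical factors were lower, E2F8 at 3.91 to 5.87 and E2F7 at 3.04 to 5.002 TPM, and RBL1 had 1.97 to 3.37 TPM. With the median transcript length in place of the longest, E2F5 and E2F6 exchanged places and the other 8 kept theirs. The pair of pocket proteins thus stood at opposite ends of the order in both groups.

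**Figure D4:**
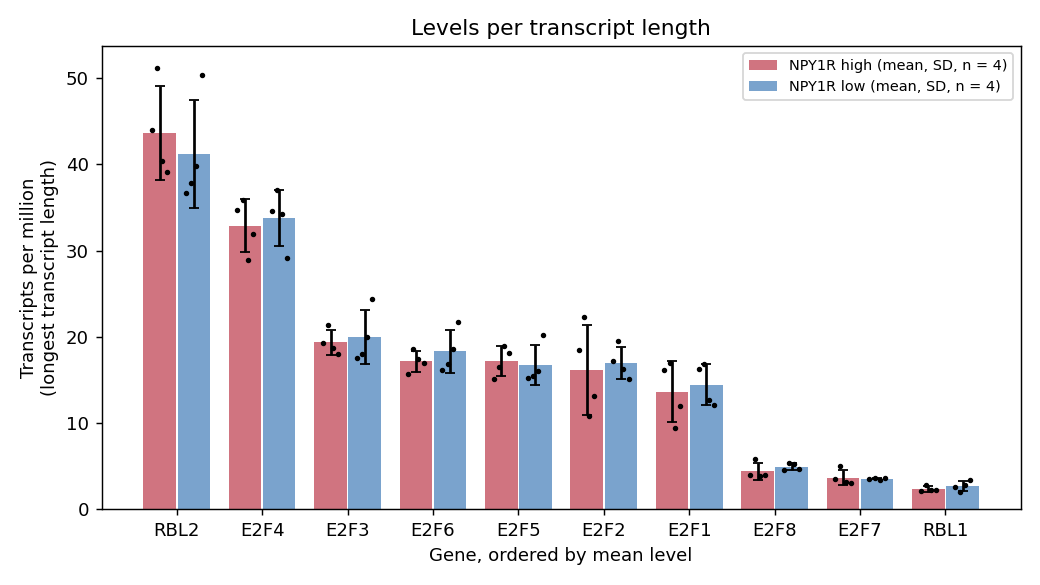
TPM of the 10 genes in order of their mean over all libraries, with bars for group means, error bars for SD (n = 4) and a dot per library. RBL2 and E2F4 stand above the rest, and E2F8, E2F7 and RBL1 stay at or below 5.87 TPM.

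Around the 10 genes, some genes of the upstream RB and E2F pathway were called. Of 21 tested genes of this list, 2 rose and 3 fell (median log2 change -0.01), against 5.78% higher and 7.81% lower over all tested genes. The count of 5 calls was 3 to 6 when 1 library was left out, and whether it exceeds these shares was not tested. CDK6, a cyclin D kinase that phosphorylates pocket proteins, had 88.1, 100.2, 60.9 and 62.3 CPM in NPY1R high and 31.1, 37.5, 25.9 and 24.4 CPM in NPY1R low. Every high library stood above every low library, and replicates 1 and 2 were the higher ones in both groups. The rise was 1.39 (SE 0.19), or 2.62-fold, with an edgeR adjusted p of 0.000896. The other called regulators were SKP2 (higher), CDKN1B, CKS1B and CCNF (lower), of which SKP2 lost its call in 4 and CCNF in 6 of the 8 fits that left out 1 library. CDK4, the homologue of CDK6, was at 0.18 (edgeR adjusted p 0.0968) and was called higher in 11 of 24 alternative fits. Its groups narrowly did not overlap, with 176.2 CPM in the lowest high and 175.4 CPM in the highest low library. CCND1, the cyclin D1 gene, was at 0.07 (edgeR adjusted p 0.571) and was called in 0 of the 24.

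The pocket proteins RBL1 and RBL2 act in DREAM together with the MuvB proteins, and of 9 tested MuvB subunits and partners 3 fell and 0 rose (median -0.12), against 7.81% lower and 5.78% higher over all tested genes. The count was 1 without NPY1R high replicate 3 or NPY1R low replicate 1, 2 or 3. FOXM1, the MuvB-bound activator of G2 and M genes, had 121.7 ± 13.1 CPM in low and 71.5 ± 13.1 CPM in high (SD, n = 4 each) and fell by 0.77 (SE 0.13, edgeR adjusted p 0.00296). MYBL2 (B-MYB), which recruits it, fell by 0.64 on the log2 scale (SE 0.18, edgeR adjusted p 0.0445), and LIN9, a MuvB subunit, by 0.36 (SE 0.10, edgeR adjusted p 0.0324). MYBL2 kept its call only without NPY1R high replicate 1 or NPY1R low replicate 4, and LIN9 only without NPY1R high replicate 1, with edgeR adjusted p up to 0.142 and 0.107 in the other such fits. RBBP4, the histone-binding subunit, was at 0.07 (edgeR adjusted p 0.641) and DYRK1A, the kinase that starts DREAM assembly, at -0.03 (edgeR adjusted p 0.752).

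Targets of these factors were counted by phase, and the difference between the lists was not tested. Of 39 tested E2F targets of the G1/S transition, genes of replication licensing and nucleotide synthesis, 1 fell and 0 rose, against 7.81% lower and 5.78% higher over all tested genes, with a median of -0.07 and a range of -0.31 to 0.36. By sign alone 30 were negative and 9 positive, where 7831 of all 14008 tested genes were negative. The count of calls was 2 without NPY1R high replicate 3 or 4 or NPY1R low replicate 1, and reached 11 with the GC offset and a term for replicates 1 and 2 against 3 and 4. The gene that fell was RRM1, the large subunit of ribonucleotide reductase, at -0.31 (SE 0.06, edgeR adjusted p 0.00839). MCM7 and MCM3, subunits of the replicative helicase, were at -0.18 (edgeR adjusted p 0.37) and 0.12 (edgeR adjusted p 0.51). UNG, named here after its values were seen, was at 0.36 (edgeR adjusted p 0.0603) and was called higher in 17 of 24 alternative fits.

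All 32 tested DREAM targets of G2 and M phase were lower in NPY1R high, each past the threshold in the main fit, against 7.81% lower over all tested genes. Their median was -0.89 and their range -1.20 to -0.32. A fall of G2 and M genes was already known from these libraries when the list was made, so the count is no independent evidence. CDK1, the kinase of mitotic entry and the smallest change of the list, was at -0.32 (edgeR adjusted p 0.0398) and was called in 9 of 24 alternative fits. NEK2, a centrosome kinase, was at -1.20 (SE 0.08), DLGAP5 at -1.15 (SE 0.07), CCNB2, a mitotic cyclin, at -1.13 (SE 0.07), and BUB1, a spindle checkpoint kinase, at -1.003 (SE 0.07). Their edgeR adjusted p ran from 1.03e-05 (CCNB2) to 1.69e-05 (BUB1). CCNB2 had 38.1 to 46.5 CPM in the high and 89.0 to 98.2 CPM in the low libraries. Fewer cells in a phase and less RNA per cell cannot be told apart in these bulk libraries.

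The E2F sites found before E2F1, E2F2, E2F3 and RBL1 were also frequent before the G1/S targets. Of the 52 RefSeq windows of the G1/S list, 40.4% held an E2F site and 7.69% a CHR. Of the 33 windows of the G2/M list, 9.09% held an E2F site and 69.7% a CHR. A CHR lay in 16.4% of all windows. Both lists were made of known E2F or DREAM targets, so these shares partly follow from that choice and are no independent evidence.

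For E2F6, the 13 polycomb partners of the PRC1.6 complex were all tested and 0 were called by edgeR, DESeq2 or limma-voom, with 2 at an unadjusted p under 0.05 and a median of -0.03. Over all tested genes 13.6% were called and 26.2% had such an unadjusted p, so for a list of this size a count of 0 is near the background. CBX3, a heterochromatin protein, was at 0.01 (edgeR adjusted p 0.978) and HDAC2, a histone deacetylase, at -0.09 (edgeR adjusted p 0.592). Of 8 germline genes that E2F6 is known to repress, 2 had counts enough to test. SMC1B, a meiotic cohesin subunit, was at 0.16 (edgeR adjusted p 0.583) and TDRKH at -0.07 (edgeR adjusted p 0.701), with 0 called by any of the 3 tools and 0 at an unadjusted p under 0.05. For E2F1, 12 apoptotic targets were tested and 0 were called by the 3 tools, with 1 at an unadjusted p under 0.05 and a median of 0.01, which for so few genes is also near the background of 13.6% and 26.2%. DIABLO, a mitochondrial protein that promotes apoptosis, was at 0.01 (edgeR adjusted p 0.946).

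Some counts of the 10 genes can hold reads of other loci. The estimated counts of E2F5 and RBL2 were not whole numbers in 8 of 8 libraries and those of the other 8 genes were whole. In GENCODE 29, exons of E2F5 overlap those of C8orf59 on the other strand over 969 bases, and exons of RBL2 overlap those of AKTIP on the other strand over 610 bases. These are the protein-coding partners, and non-coding or unclassified genes on the other strand overlap exons of RBL2 over 721, RBL1 over 211, E2F5 over 133 and E2F8 over 7 bases. The kit marks strand, but whether the counting used it is not stated, so reads of these pairs may not be told apart. C8orf59 was at 0.05 (edgeR adjusted p 0.834) and AKTIP at 0.10 (edgeR adjusted p 0.372), beside E2F5 at 0.07 and RBL2 at 0.11. None of these genes was called, and whether the pairs share reads was not tested. GENCODE 29 also lists 2 pseudogenes named after E2F3, 1 after E2F4 and 4 after E2F6, and the table had a row for 0 of them, so these genes' counts may be uncertain.

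The summed luminal markers were high in all libraries, and those of other cell types low or at 0. The 8 luminal markers (ERBB2, EPCAM, CDH1, KRT8, KRT18, KRT19, GATA3, ESR1) summed to 7181 to 8262 CPM in high and 7025 to 9277 CPM in low. By mean over all libraries, the amplified ERBB2 was the largest of them at 3468 CPM and GATA3 the smallest at 30.9 CPM. COL1A1 and VWF, the largest fibroblast and endothelial markers, had means of 14.8 and 13.9 CPM. The 5 fibroblast markers summed to at most 17.5 CPM, nearly all of it COL1A1, with COL1A2, DCN and PDGFRB at 0 counts. The 4 leukocyte markers summed to at most 2.77 CPM with CD3E at 0, the 3 endothelial markers to at most 18.2 CPM, nearly all VWF, and the 3 basal markers to at most 8.81 CPM with KRT14 at 0.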

How the data were processed

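RNA from 8 BT474 libraries was compared, 4 NPY1R high and 4 NPY1R low. The authors deposited expected counts for each gene symbol, with totals that differ between libraries. The submitters' processing notes name STAR 2.5.2, RSEM 1.3.0 and hg38, without their roles, and the annotation is not given in the sources used here. The single-library tables held the same values (0 differed). Counts were rounded to whole numbers, filtered with filterByExpr (minimum count 10), scaled by TMM and tested without covariates by edgeR's quasi-likelihood test (edgeR 4.0.16, R 4.3.3), with Benjamini-Hochberg adjustment over 14008 genes and a threshold of 0.05. SE and 95% intervals come from that test's F statistic. Alternatives used DESeq2 1.42.0, limma 3.58.1 (voom), other scalings and filters, a replicate block and fewer libraries. Others used a GC offset (spline with 5 degrees of freedom, GENCODE 29, 94.1% of tested genes). Log2 CPM values outside the voom fit had a prior count of 2. A chi-square per degree of freedom of 5.75 to 62.2 within groups showed no repeated library. The procedure was tested on simulated counts.

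The genes and lists were chosen with earlier results of these data known. Named from each list were up to 4 called genes in each direction with the smallest adjusted p and the 2 most abundant genes not called. One gene so chosen is not reported here. Genes of like pattern were to be named for called E2F or RBL genes, of which there were 0. Protein sequences were not used here. Counts without molecular identifiers carry more than counting error.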

Additional observations from a re-analysis of the deposited data

Results flagged for a closer look

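NPY1R high replicate 2 was set apart from the rest of its group in E2F8, at 10.6 CPM beside 8.14, 8.21 and 8.26 CPM. Of the whole span of these 4 values, 0.952 lay between this library and the next, more than the 0.829 that Dixon's criterion allows at the 95% level. The NPY1R low libraries ran from 8.09 to 11.3 CPM and so include it. The criterion was applied to 20 sets of values (10 genes in 2 groups), of which it marked 1, and about 1 would be marked by chance.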

How the results depend on the processing

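Of 24 alternative fits, 23 called 0 of the 10 genes, and replicates 1 and 2 alone called 1, RBL2 (0.2423). E2F6, E2F8, RBL1 and RBL2 kept their direction in all 24. The others, all close to 0, changed sign without being called, and the cause was not tested. The median change of all tested genes also moved, from -0.029 in the main fit to -0.003 with median-of-ratios factors. It was 0.025 with upper-quartile factors, 0.012 with library totals, 0.017 without a filter, 0.010 at 1 CPM and 0.011 at 10 counts. E2F3 was at 0.0082 with median-of-ratios factors, 0.036 with upper-quartile factors, 0.0226 with library totals, 0.0233 without a filter, 0.0246 at a floor of 1 CPM in 4 libraries, 0.0242 at a floor of 10 counts in all, 0.009 with DESeq2 and 0.088 in replicates 1 and 2. E2F4 was at 0.0191, 0.005, 0.0029, 0.0047 and 0.0041 under the same settings from upper-quartile factors to 10 counts, at 0.0124 with the GC offset, 0.0127 with the offset and the replicate block, 0.0125 with the offset and a term for replicates 1 and 2 against 3 and 4 (chosen after seeing the data), and 0.1448 in replicates 3 and 4. In replicates 1 and 2 E2F2 was at 0.0437 and E2F5 at -0.0567. When each library was left out, E2F1 ranged from -0.2127 to 0.059, E2F2 from -0.2135 to 0.0814, E2F3 from -0.036 to 0.0605, E2F4 from -0.1146 to 0.0495 and E2F7 from -0.0651 to 0.1517.

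Over all genes, 1094 were lower and 810 higher. Lower genes numbered 1801 with the GC offset, 1998 with the offset and replicate block, 1681 with the term, 2497 with offset and term, 443 in replicates 3 and 4, 562 at an adjusted p under 0.01, and 625 to 1064 without a library (710 without NPY1R high replicate 3, 625 without high replicate 4, 678 without low replicate 1). Higher genes numbered 1333 with offset and block, 1660 with offset and term, 1421 in replicates 1 and 2, 445 in replicates 3 and 4 and 470 at 0.01. The split of higher to lower was 898 to 905 with median-of-ratios factors, 949 to 807 with library totals and 1009 to 783 with upper-quartile factors.

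Calls in the pathway regulators (5) were 8 with the term, 8 with offset and term, 3 in replicates 3 and 4, and 3 to 6 without a library, with 3 without NPY1R high replicate 2 or NPY1R low replicate 3. In the MuvB list (3) they were 1 with library totals, at 10 counts and in replicates 3 and 4, 5 with offset and term, and 1 to 3 without a library, with 1 without NPY1R high replicate 3 or NPY1R low replicate 1, 2 or 3. In the polycomb list (0) they were 1 with the offset, with offset and block and in replicates 1 and 2, and 2 with offset and term. In the G1/S list (1) they were 2 with other scalings and filters, DESeq2 and replicates 3 and 4, 3 with the replicate block or the offset, 5 with both or in replicates 1 and 2, 4 with the term, 11 with offset and term, and 1 to 2 without a library, the latter without NPY1R high replicate 3 or 4 or NPY1R low replicate 1. In the apoptotic list (0) they were 1 with upper-quartile factors, at 1 CPM and at 10 counts, and 2 with offset and term. The G2/M list kept 31 or 32 of 32.

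Replicate numbers did not qualify as pairs. Deviations of same-numbered libraries correlated at 0.339, 0.157, 0.0907 and 0.0178 across genes, and 2 of 8 libraries correlated best with their own number. Under the replicate block 805 genes were called higher, 1028 lower and 0 of the 10 E2F and RBL genes, and SKP2 (edgeR adjusted p 0.0543) and LIN9 (0.0654) were not called.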

Other observations

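Beside CDK6, 4 of the tested regulators of the RB and E2F pathway were called. CDKN1B, the CDK inhibitor p27, had 145.8 ± 7.19 CPM in low and 116.02 ± 5.98 CPM in high (SD, n = 4 each) and fell by 0.33 on the log2 scale (SE 0.06, edgeR adjusted p 0.00395). SKP2, the ubiquitin ligase subunit that marks p27 for degradation, rose by 0.21 (SE 0.05, edgeR adjusted p 0.0289). CKS1B, the cofactor of that ligase, had a change of -0.49 (SE 0.08, edgeR adjusted p 0.00214), and CCNF, cyclin F, one of -0.63 (SE 0.15, edgeR adjusted p 0.0209). SKP2 lost its call without NPY1R high replicate 1 or 2 or NPY1R low replicate 1 or 3 (edgeR adjusted p 0.0519 to 0.0924). CCNF kept its call only without NPY1R high replicate 1 or NPY1R low replicate 4, and had edgeR adjusted p up to 0.0842 in the other fits that left out a library.

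Over all 10248 tested genes with a RefSeq promoter window, a comparison chosen after the values were seen, 8.25% fell and 5.78% rose. Of the 666 with an E2F site, the sites that E2F1, E2F2, E2F3 and RBL1 share, 8.56% fell and 3.45% rose, with a median change of -0.05. Of the 1588 with a CHR, 12.8% fell and 7.05% rose, with a median of -0.04. Of the 115 with both, 17.4% fell and 0.87% rose, with a median of -0.10. These shares are descriptions, and the short CHR spelling also matches by its letters alone.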
